A study of Homo sapiens with 4 samples.

Results

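Collagen, laminin and integrin genes, together with fibronectin (FN1), perlecan (HSPG2) and dystroglycan (DAG1), were examined in A549 cells with and without knockdown of YTHDF2. Genes were taken by symbol: every collagen chain, every laminin chain, the integrin alpha chains with a number, ITGAV, ITGAE and the integrin beta chains apart from the leukocyte chain ITGB2. The rule found 74 of the 28283 genes in the deposited expression table, made up of 39 collagen, 12 laminin and 20 integrin genes and the 3 genes named above. Of these, 35 reached 1 FPKM (fragments per length of transcript, corrected for the size of the library, so a level per length) in shNC, in shY2-2 or in both and are called expressed below; 12268 genes of the whole table did so. A549 is a human lung adenocarcinoma line. The shNC cells were the control, and their labels name a pLKO vector without saying whether it was empty or held a control shRNA. The shY2-2 cells carried a lentiviral shRNA against YTHDF2 that was kept as a stable knockdown. The study's other shRNA against YTHDF2 was not sequenced here. From each line, poly(A) RNA was fragmented and sequenced directly (input, 1 library) and after pulldown with an antibody against m6A (IP, 1 library), so the 4 libraries contained no replicates, and every difference between shNC and shY2-2 is a difference between libraries with no replicate check and no p-value.

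Collagens are built from chains that wind into a triple helix, and laminins from an alpha, a beta and a gamma chain. Laminins, type IV collagen and perlecan make up the basement membrane under epithelial cells, fibronectin forms fibrils around them, and integrins, which are pairs of an alpha and a beta chain, and dystroglycan are the receptors that hold the cell to these proteins. YTHDF2 is a protein of the cytoplasm that binds mRNA carrying N6-methyladenosine (m6A) and is known to promote its decay. The comparison addressed how the mRNA level and the m6A peaks of these genes differed when YTHDF2 was lowered.

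YTHDF2 itself had an FPKM of 3.56 in shNC and 1.02 in shY2-2, which is 28.6% of the shNC level and a log2 ratio of -1.18. Ratios here are log2((FPKM shY2-2 + 1)/(FPKM shNC + 1)), a scale that understates changes of genes at low FPKM. Their median over the 12268 expressed genes was 0.00. All 5 epithelial markers were expressed in both libraries, with KRT8 at 523 FPKM in shNC and 322 in shY2-2, and the sum of the list in shY2-2 was 65.6% of that in shNC. The 3 endothelial markers were at or below 0.0869 FPKM, and among the leukocyte markers PTPRC and CD3E were at or below 0.0999 FPKM while CD68 stood at 12.2 in shNC and 10.2 in shY2-2. Low values in the table showed that the same number of fragments was worth less FPKM in shY2-2, as from a library 1.25 times as deep as shNC, but the absolute depth is unknown.

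The matrix and adhesion genes were mostly lower in the shY2-2 library. Of the 35 expressed genes, 29 had a ratio below 0, against 49.7% of all expressed genes, and 6 a ratio above 0. Some reached 1 FPKM in 1 library only, so the filter itself fixed their direction. COL4A4, COL12A1, ITGB6 and LAMC3 did so in shNC and count as lower, and COL1A1 did so in shY2-2 and counts as higher. None of these was below -1. Of all 12268 expressed genes, 11153 reached 1 FPKM in both libraries. The median log2 ratio of the 35 was -0.63. The threshold of a log2 ratio below -1 was passed by 7 of the 35, against 2.14% of all expressed genes. No gene of the 35 passed a log2 ratio above 1, against 0.986% of all expressed genes. With a pseudocount of 0.1 in place of 1, the count below -1 was 15 of 35, against 4.91% of all expressed genes. The count is also close to its limit, since HSPG2 was just inside it at -1.002 and COL4A6, LAMB1 and ITGB4 were just outside it at -0.995, -0.988 and -0.958.

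**Figure D1:**
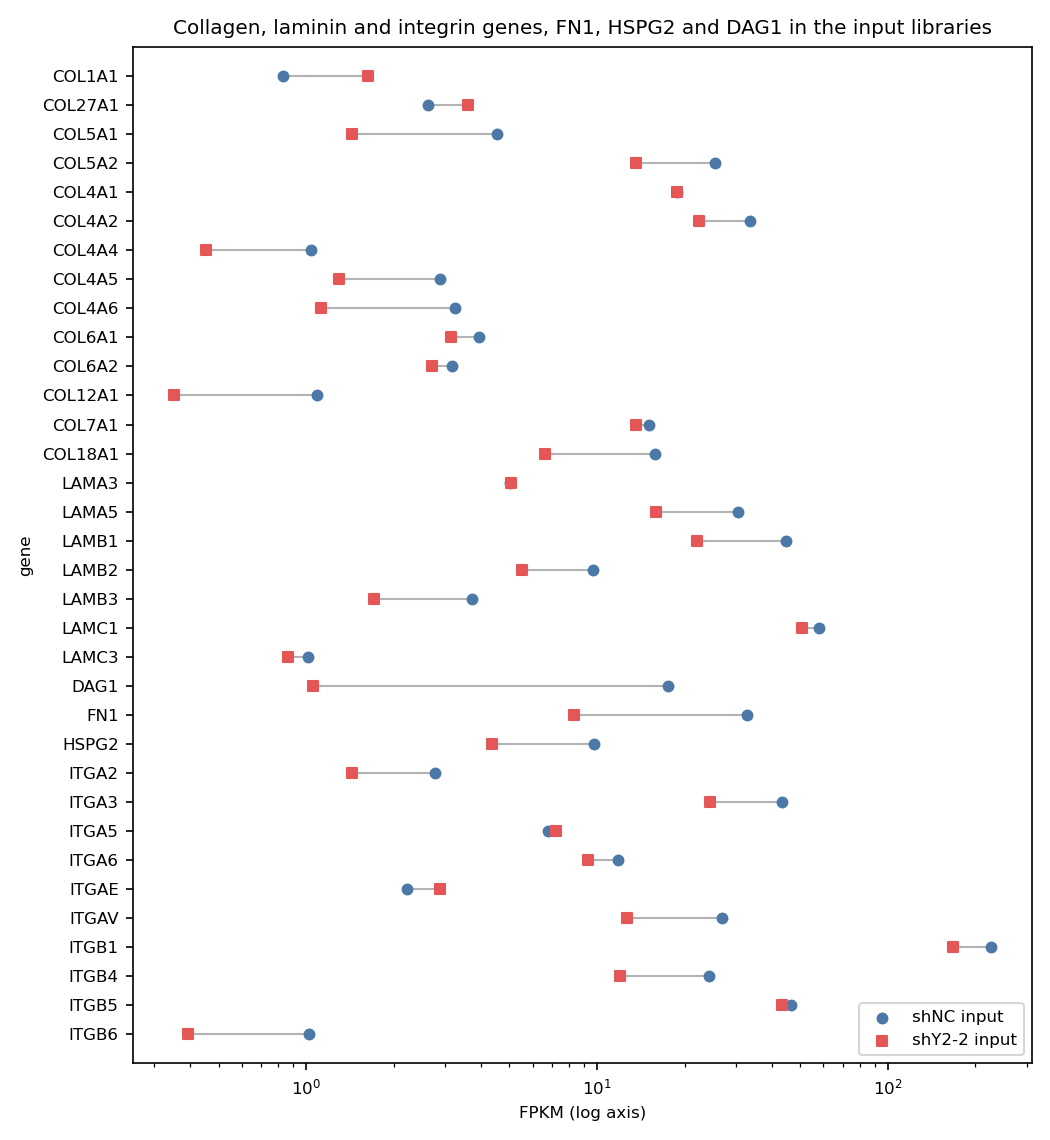
FPKM of 34 of the expressed genes in the shNC input library (blue circles) and the shY2-2 input library (red squares), on a log axis, each from 1 library. The red square lies left of the blue circle for 28 genes, with the widest gap for DAG1 (17.5 against 1.06).

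The largest differences were in DAG1 and FN1, which are outside the chain families, and DAG1 stood furthest from the rest. DAG1 (ENSG00000173402, chromosome 3, 49468703 to 49535618 of GRCh38, + strand) encodes both subunits of dystroglycan, which links laminin outside the cell to dystrophin or utrophin inside it. Its level was 17.5 FPKM in shNC and 1.06 in shY2-2, which is 6.04% of the shNC level and a log2 ratio of -3.17. Only 1 of the 12268 expressed genes had a lower ratio. The shY2-2 value is a single FPKM estimate that stands beside clear shY2-2 peaks in the same gene, described with the peaks, and whether the estimate itself was in error could not be checked without reads. FN1 (ENSG00000115414, chromosome 2, 215360440 to 215436172, - strand) encodes fibronectin. Its level was 32.8 FPKM in shNC and 8.33 in shY2-2, a log2 ratio of -1.86, and it ranked 19 from the lowest ratio in the table. HSPG2 (ENSG00000142798, chromosome 1, 21822245 to 21937297, - strand) encodes the proteoglycan perlecan and had 9.74 FPKM in shNC and 4.37 in shY2-2. The summed FPKM of the 3 genes was 60.1 in shNC and 13.8 in shY2-2, 22.9% of the shNC sum, whereas the sums of the collagens, the laminins and the integrins were 68.5%, 65.7% and 71.7% of theirs.

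**Figure D2:**
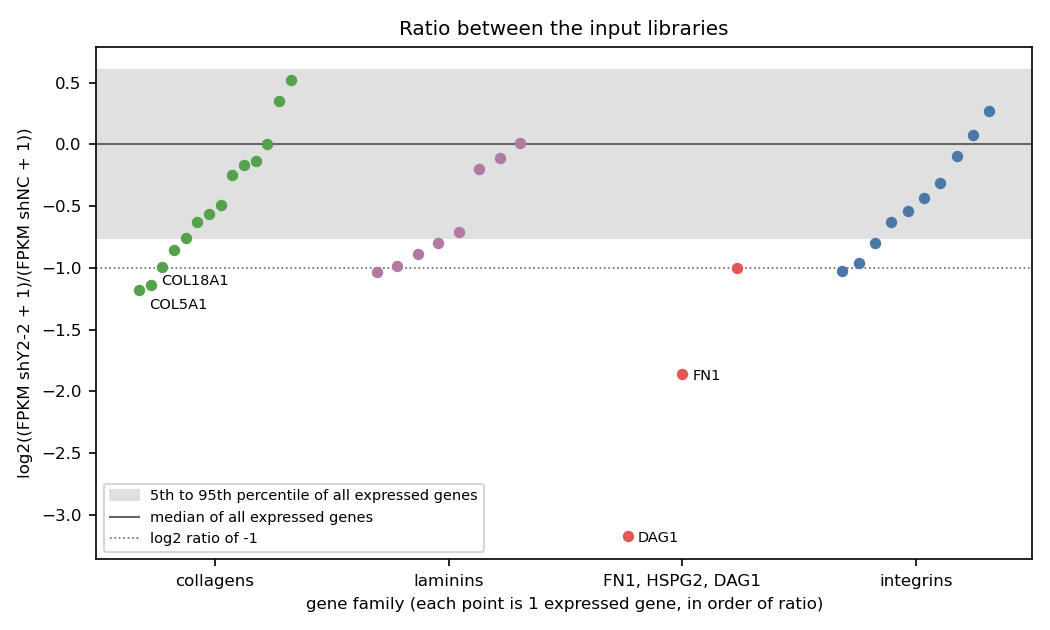
Log2 ratio of each expressed gene by family, with the median (line) and the 5th to 95th percentile (band, -0.76 to 0.60) of all 12268 expressed genes and a dotted line at -1. DAG1 at -3.17 and FN1 at -1.86 lie well below the chain families, whose lowest value is -1.18.

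Among the collagens, 14 of 39 genes were expressed, 11 of them were lower in shY2-2, and the median log2 ratio was -0.53. COL5A1 and COL5A2 encode chains of type V collagen, which sets the diameter of collagen fibrils. COL5A1 (chromosome 9, 134641774 to 134844843) had 4.53 FPKM in shNC and 1.44 in shY2-2, a log2 ratio of -1.18. COL5A2 had 25.5 and 13.6 FPKM, a log2 ratio of -0.86. COL18A1 (chromosome 21, 45405137 to 45513720) encodes a basement membrane collagen whose cleaved end is endostatin, and its level was 15.8 FPKM in shNC and 6.62 in shY2-2, a log2 ratio of -1.14. Of the 4 expressed fibrillar collagens, the type V chains were the 2 that were lower, and the other 2 were higher. COL1A1, a chain of the main collagen of connective tissue, had 0.834 FPKM in shNC and 1.64 in shY2-2, a log2 ratio of 0.52. It counted as expressed through its shY2-2 value alone. COL27A1 had 2.62 and 3.61 FPKM, a log2 ratio of 0.35.

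Type IV collagen, the network of the basement membrane, is encoded by 6 genes in head-to-head pairs. COL4A1 had the same level in both libraries, 18.8 FPKM, while its neighbour and partner COL4A2 had 33.6 FPKM in shNC and 22.5 in shY2-2, a log2 ratio of -0.56. The level of COL4A1 over that of COL4A2 was therefore 0.560 in shNC and 0.837 in shY2-2. The annotated bounds of these genes overlap by 1338 bp on opposite strands, and the libraries were strand-specific, but whether the FPKM values were counted by strand is not given in the sources used here. COL4A5 and COL4A6, which start 346 bp apart on chromosome X, had 2.89 and 3.24 FPKM in shNC and 1.29 and 1.13 in shY2-2, with log2 ratios of -0.76 and -0.995. In contrast, COL7A1, which forms the anchoring fibrils under epithelia, had 15.1 and 13.7 FPKM, a log2 ratio of -0.14. COL6A1 (3.91 and 3.14 FPKM) and COL6A2 (3.16 and 2.70 FPKM), chains of the beaded filament type VI collagen, had log2 ratios of -0.25 and -0.17.

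Of the collagens below 1 FPKM, 4 that fibroblasts are known for are given here because they were nearer to 0 in shY2-2, and they were chosen after their values were seen. COL1A2 had 0.395 FPKM in shNC and 0.0484 in shY2-2. COL3A1 had 0.710 and 0.118 FPKM, and COL6A3 had 0.222 and 0.0403 FPKM. COL14A1 had 0.250 FPKM in shNC and was listed at 0 in shY2-2. Other collagens of fibroblasts did not follow them, since COL1A1 was higher in shY2-2, as given above, COL5A3 had 0.0677 FPKM in shNC and 0.0715 in shY2-2, and COL15A1 had 0.149 and 0.201. The fibroblast markers were also lower in shY2-2. LUM had 0.555 FPKM in shNC and 0.0258 in shY2-2, DCN had 0.259 and 0.0237, and PDGFRB had 0.0863 and 0.0408. The sum of the 3 was 0.900 in shNC and 0.0902 in shY2-2. None of the 3 reached 1 FPKM, and their part in the collagen values was not tested. Lower values at such levels were not particular to fibroblast genes. Of the 39 genes of the set under 1 FPKM, 29 were lower in shY2-2, and the same share over all genes under 1 FPKM was not computed. Among the endothelial and leukocyte markers under 1 FPKM, PECAM1 (0.0869 and 0.00498), PTPRC and CD3E were lower in shY2-2, and VWF and CDH5 were higher. In bulk RNA, fewer cells of a type and less RNA per cell cannot be told apart. The collagens under 1 FPKM did not enter the counts of the 35.

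Of the 12 laminin chains, 8 were expressed, 7 of them were lower in shY2-2, and their median log2 ratio was -0.75. The main chains in these cells were LAMA5, LAMB1 and LAMC1, which together form laminin-511, the common laminin of epithelial basement membranes. LAMA5 had 30.5 FPKM in shNC and 15.96 in shY2-2, a log2 ratio of -0.89. LAMB1 had 44.8 and 22.1 FPKM, a log2 ratio of -0.99. LAMC1, the gamma chain that most laminins share, had 58.2 and 50.6 FPKM, a log2 ratio of -0.20. The alpha and beta chains thus differed more between the libraries than the gamma chain did, and the FPKM of LAMA5 over that of LAMC1 was 0.524 in shNC and 0.315 in shY2-2. LAMB2, the other partner of LAMC1, had 9.68 and 5.52 FPKM, a log2 ratio of -0.71.

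In the chains of laminin-332, the laminin of anchoring contacts, the alpha and beta chains differed in their ratios. LAMB3 had 3.71 and 1.71 FPKM, a log2 ratio of -0.80. LAMA3 had 5.03 FPKM in shNC and 5.07 in shY2-2, a log2 ratio of 0.01. The level of LAMB3 over that of LAMA3 was 0.737 in shNC and 0.338 in shY2-2.

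Of the 20 integrin genes, 10 were expressed, 8 of them were lower in shY2-2, and the median log2 ratio was -0.49. ITGB1, the beta chain shared by most matrix receptors, had the highest level of all 74 genes, 226 FPKM in shNC and 167 in shY2-2, a log2 ratio of -0.44. It exceeded the sum of the 12 alpha chains that can pair with it 2.45 times in shNC and 3.00 times in shY2-2. ITGA3, the alpha chain of a laminin receptor, was the highest alpha chain, with 43.4 and 24.4 FPKM and a log2 ratio of -0.80. ITGAV (chromosome 2, 186590065 to 186680901), which pairs with several beta chains to bind fibronectin and vitronectin, had 26.9 and 12.7 FPKM, and at -1.03 it was the integrin with the lowest log2 ratio. ITGB5, a beta chain of ITGAV, had 46.3 and 43.2 FPKM and a log2 ratio of -0.10. The level of ITGAV over that of ITGB5 was 0.581 in shNC and 0.294 in shY2-2.

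The chains of the receptors for fibronectin and laminin were not all lower where their ligands were. ITGA5, the alpha chain of the classical fibronectin receptor, had 6.78 FPKM in shNC and 7.20 in shY2-2, a log2 ratio of 0.08, while FN1 was at 25.4% of its shNC level. ITGA6 and ITGB4 form the laminin receptor of hemidesmosomes. ITGA6 had 11.8 and 9.28 FPKM (log2 ratio -0.31) and ITGB4 had 24.2 and 11.98 FPKM (log2 ratio -0.96). ITGAE, the alpha chain of a receptor for E-cadherin, had 2.23 and 2.89 FPKM, a log2 ratio of 0.27.

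The 35 genes share a property that the choice by symbol did not use: their mRNAs are long. The canonical transcript of an expressed gene of the set had a median spliced length of 6446 nt (3445 to 14341 nt), against 2912 nt over the 12202 expressed genes with a length. When all expressed genes were split by length into 5 groups of nearly equal number, the median log2 ratio went from 0.12 in the shortest group to -0.16 in the longest. In the longest group (5359 nt or more), 67.8% of all genes were below 0 and 3.03% below -1. There, 22 of the 26 genes of the set were below 0, 7 were below -1, and their median was -0.74. In the group before it (3580 to 5357 nt), the median was -0.06 over all genes and -0.34 over the 8 genes of the set, none of which was below -1. The part of length in the lower values was not tested.

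**Figure D3:**
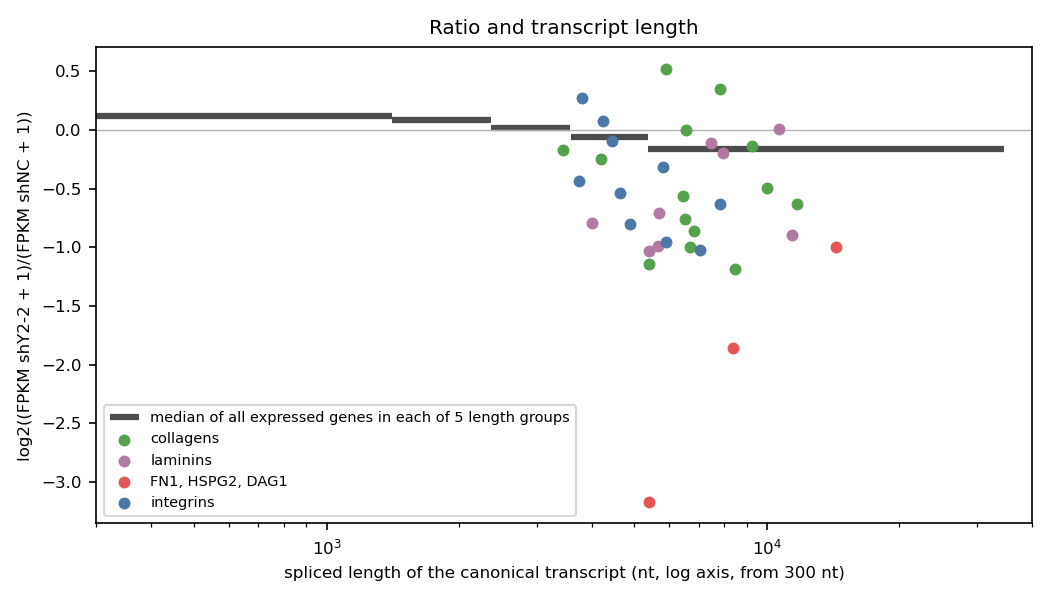
Log2 ratio against spliced length of the canonical transcript for the 35 expressed genes (points, coloured by family), with the median of all expressed genes in each of 5 length groups (bars, drawn from 300 nt). The bars step down from 0.12 to -0.16, and 22 of the 26 points in the longest group lie below 0.

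Other genes of matrix and adhesion, taken from lists of 74 genes, showed smaller differences. Of 58 that were expressed, 41 were lower in shY2-2 and 17 higher, with a median log2 ratio of -0.17, and 1 passed the threshold, against 2.14% of all expressed genes below -1 and 0.986% above 1. This was P4HA1, a chain of the enzyme that hydroxylates prolines of collagen, with 16.4 FPKM in shNC and 7.06 in shY2-2, a log2 ratio of -1.11. The median was -0.56 for 4 other matrix proteins (all 4 lower), -0.26 for 15 collagen processing genes (12 lower), -0.18 for 21 genes of the integrin adhesion complex (16 lower), -0.11 for 6 other matrix receptors (3 lower) and 0.02 for 12 partners of dystroglycan (6 lower). Among the partners of dystroglycan, the cytoskeletal linker UTRN had 3.93 and 1.61 FPKM, a log2 ratio of -0.91, and POMGNT1, which builds the sugar chains of dystroglycan, had 7.58 and 13.4 FPKM, a log2 ratio of 0.75. The lowest ratio among the 12, that of UTRN, was well above that of DAG1.

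m6A peaks are stretches of a transcript with more fragments in the IP library than in the input, called by the authors in each line separately; fold enrichment is the ratio of IP over input. In mRNA, m6A is found in a short motif whose core is often GGAC, with the methylated adenosine in the third place. In the shNC list, 62.3% of the 106 peaks of the set held GGAC on the sense strand of their spliced sequence, against 61.0% of all shNC peaks. In the shY2-2 list, it was 68.3% of 82 peaks, against 60.6% of all shY2-2 peaks. The median peak length was 240 nt in the shNC and 241 nt in the shY2-2 peaks of the set and 270 nt over all peaks. Stretches of exon as long as a peak and right beside it held GGAC in 66.3% of cases for shNC and 70.3% for shY2-2, which is not below the share in the peaks themselves. Common peaks were paired by largest overlap, each peak used once. For HSPG2 the pair holds the shNC peak with an enrichment of 3.75, and an overlapping shNC peak at 4.24 was left without a pair. For 6 genes on which the results below turn, 1 GGAC is shown with its flanks on the sense strand (GRCh38, capitals mark GGAC). It is the GGAC nearest to the middle of the paired common peak with the highest shNC enrichment.
DAG1, 3' UTR, chr3:49535456-49535479, + strand: gatggtcgttGGACtctgtgagat
HSPG2, 3' UTR, chr1:21822314-21822337, - strand: tgtggggttgGGACgcctggcctc
LAMA5, 3' UTR, chr20:62309240-62309263, - strand: gtgtctatttGGACtctaagctct
LAMC1, 3' UTR, chr1:183145428-183145451, + strand: ttccaactgtGGACcttttatatg
COL7A1, coding sequence, chr3:48569729-48569752, - strand: tgggagtgcaGGACtaaagggtga
ITGB5, 5' UTR, chr3:124887182-124887205, - strand: cgcggtcccgGGACtcggccgtga
The common peaks of FN1, ITGAV and ITGB1 with the highest shNC enrichment held no GGAC in their shared part.

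Most expressed genes of the set carried a peak, at a share like that of other genes. In shNC, 30 of 35 did (85.7%, 95% Wilson interval 70.6 to 93.7, which covers the counting of genes only), against 81.2% of all expressed genes. In shY2-2, 28 of 35 did (80.0%, 64.1 to 90.0), against 78.4%. A peak in both lists was found for 26 of 35 (74.3%), against 72.7%. The set had 106 peaks in shNC and 82 in shY2-2, and the whole lists held 31057 and 27344, so both counts were larger in shNC. These lists are longer than the peak counts the paper reports for each line. An FDR of at most 0.05 was reached by 56.4% of all shNC and 52.1% of all shY2-2 peaks. Of the peaks of the set, 12 in shNC and 15 in shY2-2 were in genes under 1 FPKM. The peaks were weak: their median fold enrichment was 2.00 in shNC and 2.14 in shY2-2, against 2.17 and 2.26 over all peaks.

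The authors' annotation placed fewer of these peaks in 3' UTRs than of other peaks. In shNC, 52 of 106 were there (49.1%, 39.7 to 58.4), against 59.1% of all shNC peaks, and 43.4% were in other exons, against 25.4%. In shY2-2, 42 of 82 were in 3' UTRs (51.2%, 40.6 to 61.7), against 59.5%, and 40.2% were in other exons, against 24.6%. These intervals count each peak as separate, but the peaks came from 38 genes in shNC and 35 in shY2-2. Some also overlapped another peak of their list (4 in shNC, 10 in shY2-2). The intervals therefore cannot decide whether the share differs from the background. Among peaks with an FDR of at most 0.05, the 3' UTR share was 59.6% against 63.3% in shNC and 56.8% against 64.1% in shY2-2. Their transcripts have long coding sequences, and the part of that in the location was not tested.

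**Figure D4:**
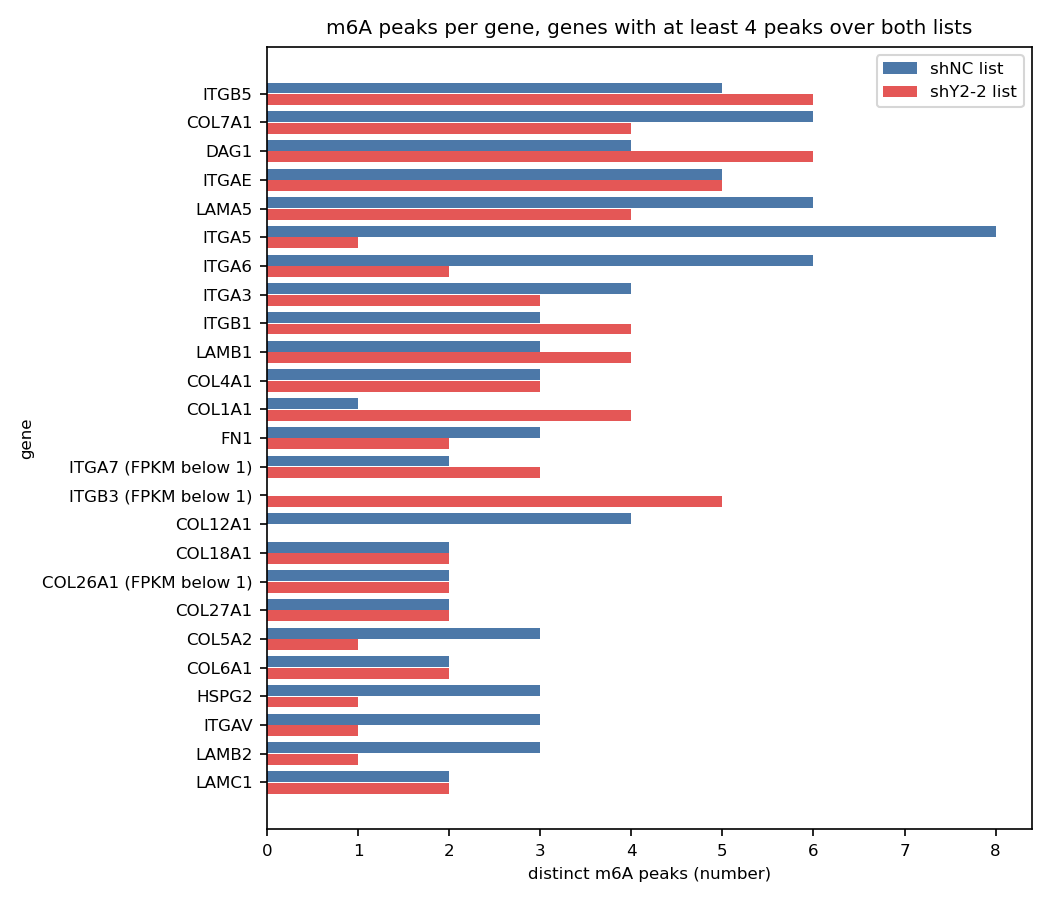
Number of distinct m6A peaks per gene in the shNC list (blue) and the shY2-2 list (red), for genes with at least 4 peaks over both lists. ITGA5 has 8 peaks in shNC and 1 in shY2-2, and DAG1 has 4 and 6.

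Of the 35 expressed genes, 15 had fewer peaks in shY2-2, 7 had more and 13 had an equal number, against 38.3%, 23.4% and 38.3% of all expressed genes. The 15 with fewer peaks had a median log2 ratio of FPKM of -0.80 (14 below 0), the 7 with more peaks -0.44 (6 below 0) and the 13 with an equal number -0.25 (9 below 0). Over all expressed genes, the same groups had medians of -0.04, 0.02 and 0.03, with 54.3%, 47.5% and 46.5% of genes below 0. COL5A1, which was among the 7 genes below -1, had 3 shNC peaks and none in shY2-2. COL12A1, a collagen that decorates fibrils, counted as expressed through shNC alone, at 1.09 FPKM in shNC and 0.352 in shY2-2. It had 4 peaks in shNC and none in shY2-2. The lowest FDR of these 4 peaks was 0.214. The part of the lower level in the number of called peaks was not tested.

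ITGA5 had the largest difference in number of peaks, at a like level in both libraries. It had 8 shNC peaks, and its single shY2-2 peak, 780 nt long in the 3' UTR with a fold enrichment of 1.57, met 2 of them. Of the 6 shNC peaks that it did not meet, 1 had an FDR of at most 0.05. ITGB3, at 0.268 FPKM in shNC and 0.325 in shY2-2, had no shNC peak and 5 in shY2-2. Of these, 4 formed 2 overlapping pairs with the same fold enrichment of 6.94 and the same p-value of 0.042, and none of the 5 had an FDR below 0.205. ITGA5 and ITGB3 were singled out after their values were seen.

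DAG1 had peaks in both lists although its level was so different. It had 4 peaks in shNC and 6 in shY2-2, and every peak of each list met a peak of the other. The peak at the start of the 3' UTR had a fold enrichment of 1.65 in shNC (p = 2.9e-05, as the authors' peak caller gave it) and 2.13 in shY2-2 (p = 1.1e-10). The peak near the end of the 3' UTR, which holds the DAG1 sequence shown above, spanned 960 nt with an enrichment of 2.20 in shNC and was split into 3 peaks in shY2-2, with enrichments of 1.83, 1.23 and 1.80. The shY2-2 peaks were compared with 4334 shY2-2 peaks in genes within 2 times the FPKM of DAG1, whose median enrichment was 3.01. The strongest, at 2.13, was matched or undercut by 24.2% of these, and those at 1.83 and 1.80 by 12.4% and 11.4%. The other 3, at 1.18 to 1.23, were matched or undercut by 0.162% to 0.323%. In shNC, among 9024 peaks chosen in the same way with a median of 1.86, the DAG1 peaks at 2.20 and 1.65 were matched or undercut by 64.4% and 37.4% and the lowest, 1.13, by 0.543%. Why DAG1 had such peaks at a low FPKM was not tested.

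FN1 had 3 weak peaks in shNC (fold enrichment 1.24 to 1.48) and 2 in shY2-2, both in its 3' UTR. The peak next to the stop codon had an enrichment of 1.24 in shNC (FDR 0.0501) and 1.77 in shY2-2 (FDR 0.00166). HSPG2 had 3 shNC peaks, of which an overlapping pair at the end of the 3' UTR, with enrichments of 3.75 and 4.24, met its only shY2-2 peak, at 2.56. ITGAV had 1 common peak near the end of its 3' UTR, with an enrichment of 2.16 in shNC and 2.28 in shY2-2. COL18A1 had 2 common peaks in its coding sequence, with enrichments of 1.42 and 2.47 in shNC and 1.43 and 1.99 in shY2-2.

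Across the set, 49 of 106 shNC peaks (46.2%, 37.0 to 55.7) met a shY2-2 peak, against 55.9% of all shNC peaks, and 49 of 82 shY2-2 peaks (59.8%, 48.9 to 69.7) met a shNC peak, against 65.4%. Peaks that met no partner reached a low FDR less often, in the set and over all peaks. An FDR of at most 0.05 was reached by 24.6% of 57 unmet and 87.8% of 49 met shNC peaks, and by 12.1% of 33 unmet and 81.6% of 49 met shY2-2 peaks. Over all peaks, these shares were 31.2% and 76.3% in shNC and 19.7% and 69.2% in shY2-2. The fold enrichment of unmet peaks of the set was not lower: the median was 2.18 for unmet and 1.93 for met shNC peaks, and 3.75 and 1.80 for shY2-2 peaks. Over all peaks, the unmet median was lower in shNC (2.10 against 2.23) and higher in shY2-2 (2.89 against 2.07). Among peaks with that FDR, 75.4% of the shNC and 90.9% of the shY2-2 peaks met any peak of the other list, against 75.6% and 86.9% over all peaks. In some places a list held the same stretch more than once: 4 shNC and 10 shY2-2 peaks of the set overlapped another peak of their own list.

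Paired by largest overlap, the common peaks formed 47 pairs. Fold enrichment was higher in shY2-2 in 25 pairs (53.2%, against 42.4% of all 16561 common pairs) and lower in 20, and the median log2 ratio of fold enrichment was 0.01, against -0.07 over all common pairs. The strongest pair by FDR was in the 3' UTR of ITGB1, with an enrichment of 2.90 in shNC and 3.26 in shY2-2. In COL7A1, the coding sequence peak that holds the sequence shown above had 2.67 and 3.61. Of the common peaks placed in 3' UTRs, the one with the highest shNC enrichment had 1.64 (FDR 0.0562) and 2.52 in LAMC1. In LAMA5 it had 2.12 and 2.54. The other LAMC1 peak placed there had 1.38 and 1.39, and the other LAMA5 peaks had 1.52 and 1.69, and 2.00 and 2.26. In contrast, the 5' UTR peaks of ITGB5 and ITGA3 were less enriched in shY2-2, at 7.81 and 5.55 for ITGB5 and at 2.92 and 1.79 for ITGA3. ITGAE had 5 peaks in each list, and 2 of its shNC peaks had no part in its canonical transcript.

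**Figure D5:**
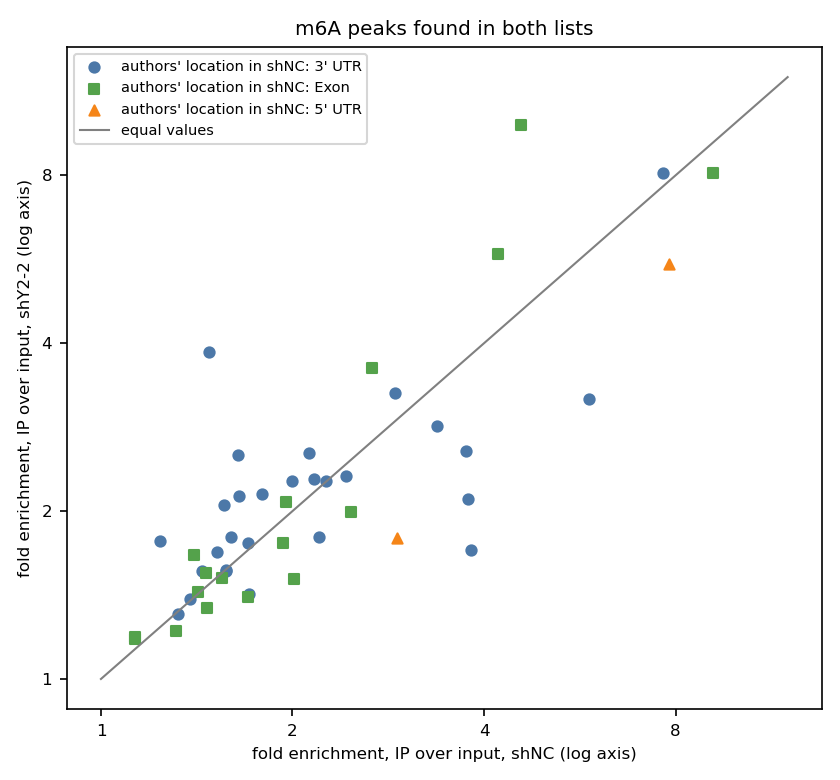
Fold enrichment of IP over input in shNC and shY2-2 for the 47 pairs of common peaks (log axes), by the authors' location in shNC, with a line of equal values. Of these pairs, 25 lie above the line and 20 below it.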

How the data were processed

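RNA-seq (input) and m6A-seq (IP) values from A549 cells were used, 1 library each of shNC input, shNC IP, shY2-2 input and shY2-2 IP, grouped by their labels. The genes and gene lists were chosen with earlier results of these data known.

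Reads were aligned by the authors with HISAT2 (GRCh38), and StringTie gave the deposited FPKM of each gene. They called peaks with exomePeak on each IP library against its input. The deposited p-value of a peak, its deposited log10 FDR, used as a score, and its fold enrichment, a ratio deposited by the authors, were taken as given. Fastp, HOMER and ChIPseeker are also named in the submitters' processing notes, and versions are not given in the sources used here. FPKM keeps no fragment counts. Relative depth was read from the commonest ratio of 3209 genes with FPKM below 0.1 in both inputs. The 39 genes of the set under 1 FPKM were described and left out of the counts of expressed genes. Their peaks, 12 in shNC and 15 in shY2-2, were kept in the counts and shares of peaks.

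Ratios were computed with a pseudocount of 1 over genes that reached 1 FPKM in either input. Rows with equal coordinates were counted as 1 peak. Peaks met where exonic blocks shared at least 1 bp on the same strand. Lengths and positions came from canonical transcripts of GENCODE release 44, and sequence from a GRCh38 genome. A common pair joined the peaks with the largest overlap. No test between conditions was run, since each has 1 library. Wilson intervals are at 95% and cover counting only.

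Genes named are FN1, HSPG2 and DAG1, every gene past a log2 ratio of 1 in size, the 2 with the highest mean FPKM in each group of chains, the 5 with the most peaks, and YTHDF2; from the lists of other genes, those past the threshold. COL1A1, COL1A2, COL3A1, COL4A3 to COL4A6, COL5A3, COL6A3, COL12A1, COL14A1, COL15A1, LAMB3, LAMC3, ITGA1, ITGA2, ITGA5, ITGA6, ITGB3, ITGB4, ITGB6, UTRN, POMGNT1, SDC1, FLNA and THBS1 were named after their values were seen. An item among these genes is not reported here by name. Alternatives are given in the closing section. Steps were tested on simulated data. Tables were handled in Python 3.11.15 with pandas 2.3.3 and NumPy 2.4.6, sequences with pysam 0.24.0, intervals with SciPy 1.17.1 and figures with matplotlib 3.10.9.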

Additional observations from a re-analysis of the deposited data

How the results depend on the processing

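Of 92 values recomputed under alternatives, 3 were chosen after seeing the data. The count of genes below a log2 ratio of -1 was 15 of 35 with a pseudocount of 0.1 (4.91% of all expressed genes). With a limit of 1.5-fold it was 18 of 35 (8.92%). Among genes with at least 5 FPKM in at least 1 input it was 6 of 21 (2.69% of all such genes). With no filter on FPKM it was 7 of 74 (0.926% of all genes), and with ratios centred on the median 8 of 35 (2.18%). Without the 8 expressed genes that overlap another expressed gene (the added choice) it was 6 of 27, against 2.14% of all expressed genes. No gene of the set passed a ratio above the limit under any setting. The median log2 ratio was -0.90 with a pseudocount of 0.1 and -0.12 with no filter on FPKM, which adds 39 genes that the pseudocount holds near 0. Genes past the threshold in the lists of other matrix and adhesion genes numbered 3 with a pseudocount of 0.1 and 12 at 1.5-fold (10 lower, 2 higher); of all expressed genes, 4.91% were below and 2.57% above with that pseudocount, and 8.92% and 5.38% at 1.5-fold. COL4A1 and LAMA3 changed sign when ratios were centred on the median, to -0.0094 and -0.000806, and LAMB1 passed -1 with a pseudocount of 0.1 (-1.02). The other 43 ratios of named genes kept their direction and their side of the limit, and 29 of the counts, medians and shares stayed within 1.5 times or within their interval.

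With peaks at an FDR of at most 0.05, a peak was left for 65.7% (shNC) and 57.1% (shY2-2) of the expressed genes of the set (64.8% and 56.9% of all expressed genes), and with a fold enrichment of at least 4 these were 37.1% and 22.9% (27.9% and 27.6%). The share of shNC peaks that met a shY2-2 peak was 75.4% with that FDR for the peak and 66.7% with it in both lists; for shY2-2 peaks these were 90.9% and 84.1%. With that FDR, the 3' UTR share was 59.6% of shNC peaks (63.3% of all) and 56.8% of shY2-2 peaks (64.1%), and by midpoint in the reference transcript it was 40.0% (50.9%) and 42.6% (56.1%). GGAC with that FDR was in 77.2% of shNC and 81.8% of shY2-2 peaks (72.2% and 71.3% of all). The median ratio of fold enrichment stayed between 0.01 and 0.03. No paired analysis was possible because each condition has 1 library of each kind. Absolute depth is unknown, so weak values cannot be given a counting error.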

Other observations

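Some of these genes are neighbours on a chromosome. COL3A1 and COL5A2, 19149 bp apart on chromosome 2, had 0.710 and 25.5 FPKM in shNC and 0.118 and 13.6 FPKM in shY2-2. COL4A3 and COL4A4, which start 451 bp apart on opposite strands of chromosome 2, had 0.416 and 1.04 FPKM in shNC and 0.259 and 0.451 FPKM in shY2-2. ITGA1 and ITGA2, collagen receptor chains 30115 bp apart on chromosome 5, had 0.140 and 2.77 FPKM in shNC and 0.0838 and 1.44 FPKM in shY2-2.

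Among the other matrix genes, SDC1, a heparan sulphate proteoglycan of the cell surface, had 21.7 FPKM in shNC and 34.6 in shY2-2 (log2 ratio 0.65), while the actin crosslinker FLNA had 134 and 76.8 (log2 ratio -0.79) and the matrix protein THBS1 had 7.34 and 3.84 (log2 ratio -0.79).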
